A study of Homo sapiens with 6 samples.

Results

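The 5 windows of 1 Mb described here held the largest deficits of 5-hydroxymethylcytosine (5hmC) cover in high glucose, compared with normal glucose, among 3049 windows of chromosomes 1 to 22 and X. They lay at chr17:79000001-80000000, chr9:139000001-140000000, chr1:1000001-2000000, chr16:1-1000000 and chr1:6000001-7000000, on the human build hg19. Peaks were assigned to a window by their midpoint. This gave 1152 of 191394 listed 5hmC peaks in high glucose and 1374 of 210081 in normal glucose, with 1270 of 100234 listed 5-methylcytosine (5mC) peaks in high glucose and 1227 of 91885 in normal glucose.

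A2058, a human melanoma cell line, overexpressed wild-type TET2 in every group and was grown for 7 days in high glucose or in normal glucose. Antibodies were used to pull down DNA fragments with either mark, which were then sequenced (hMeDIP-seq for 5hmC, MeDIP-seq for 5mC). The groups were 5hmC in high glucose, 5hmC in normal glucose, 5mC in high glucose and 5mC in normal glucose, with 1 library each, and the 2 input libraries were not analysed here. No cells without the TET2 overexpression were used here, the labels do not say whether the cells were 1 clone, and no difference below has a replicate check or a test.

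Methylation of cytosine is written by DNA methyltransferases, and in most mammalian cells it sits mainly at CpG dinucleotides. TET2 is a dioxygenase that needs iron and 2-oxoglutarate and oxidises 5mC to 5hmC, which is both a stable mark and a step towards removal of the methyl group. Loss of 5hmC is a known feature of melanoma. An antibody peak marks a stretch of DNA with more pulled-down fragments than the background, so it shows where the mark is enriched and not how many cytosines carry it.

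The windows were chosen on the 5hmC difference, which is therefore given as a description. Cover, the percent of a window or bin that lay inside listed peaks, was 19.9% in high glucose and 27.1% in normal glucose over the 5 windows, a difference of -7.19 percentage points. By window, 5hmC cover was 22.8% in high glucose and 32.0% in normal glucose on chromosome 17, and 20.5% in high and 27.8% in normal glucose on chromosome 9. It was 20.5% in high and 27.3% in normal glucose in the first chromosome 1 window, which starts at 1000001, and 18.2% in high and 24.6% in normal glucose on chromosome 16. In the second chromosome 1 window, which starts at 6000001, it was 17.5% in high and 23.7% in normal glucose. Its difference of -6.24 percentage points was the smallest of the 5, and the next window in rank, chr7:2000001-3000000, lay just outside with -6.06.

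High glucose thus had between 0.712 and 0.752 times the 5hmC cover of normal glucose in each window. All 5 were rich in 5hmC to begin with, since they ranked between 1 and 17 by cover in normal glucose. The ratio of high to normal glucose was 0.735 over the 5 windows, 0.830 over the 50 windows next in normal-glucose cover, 0.828 over the 9 flanking windows and 0.922 over the genome. Of the windows, 4 were near a chromosome end: the chromosome 16 window held the first listed peak of its chromosome, the first chromosome 1 window began 0.990 Mb after the first listed peak, and the chromosome 9 and 17 windows ended 1.09 Mb and 1.20 Mb before the last.

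The 5mC cover, which did not enter the choice, differed far less. It was 31.8% in high glucose and 30.4% in normal glucose over the 5 windows, a ratio of 1.04, against 1.08 over the genome. By window it was 39.2% in high and 37.6% in normal glucose on chromosome 17, and 34.1% in high and 32.0% in normal glucose on chromosome 9. It was 33.8% in high and 31.9% in normal glucose in the first chromosome 1 window, 34.2% in high and 33.7% in normal glucose on chromosome 16, and 17.5% in high and 16.8% in normal glucose in the second chromosome 1 window. The second chromosome 1 window therefore had about as large a 5hmC deficit as the chromosome 16 window with much less 5mC.

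**Figure D1:**
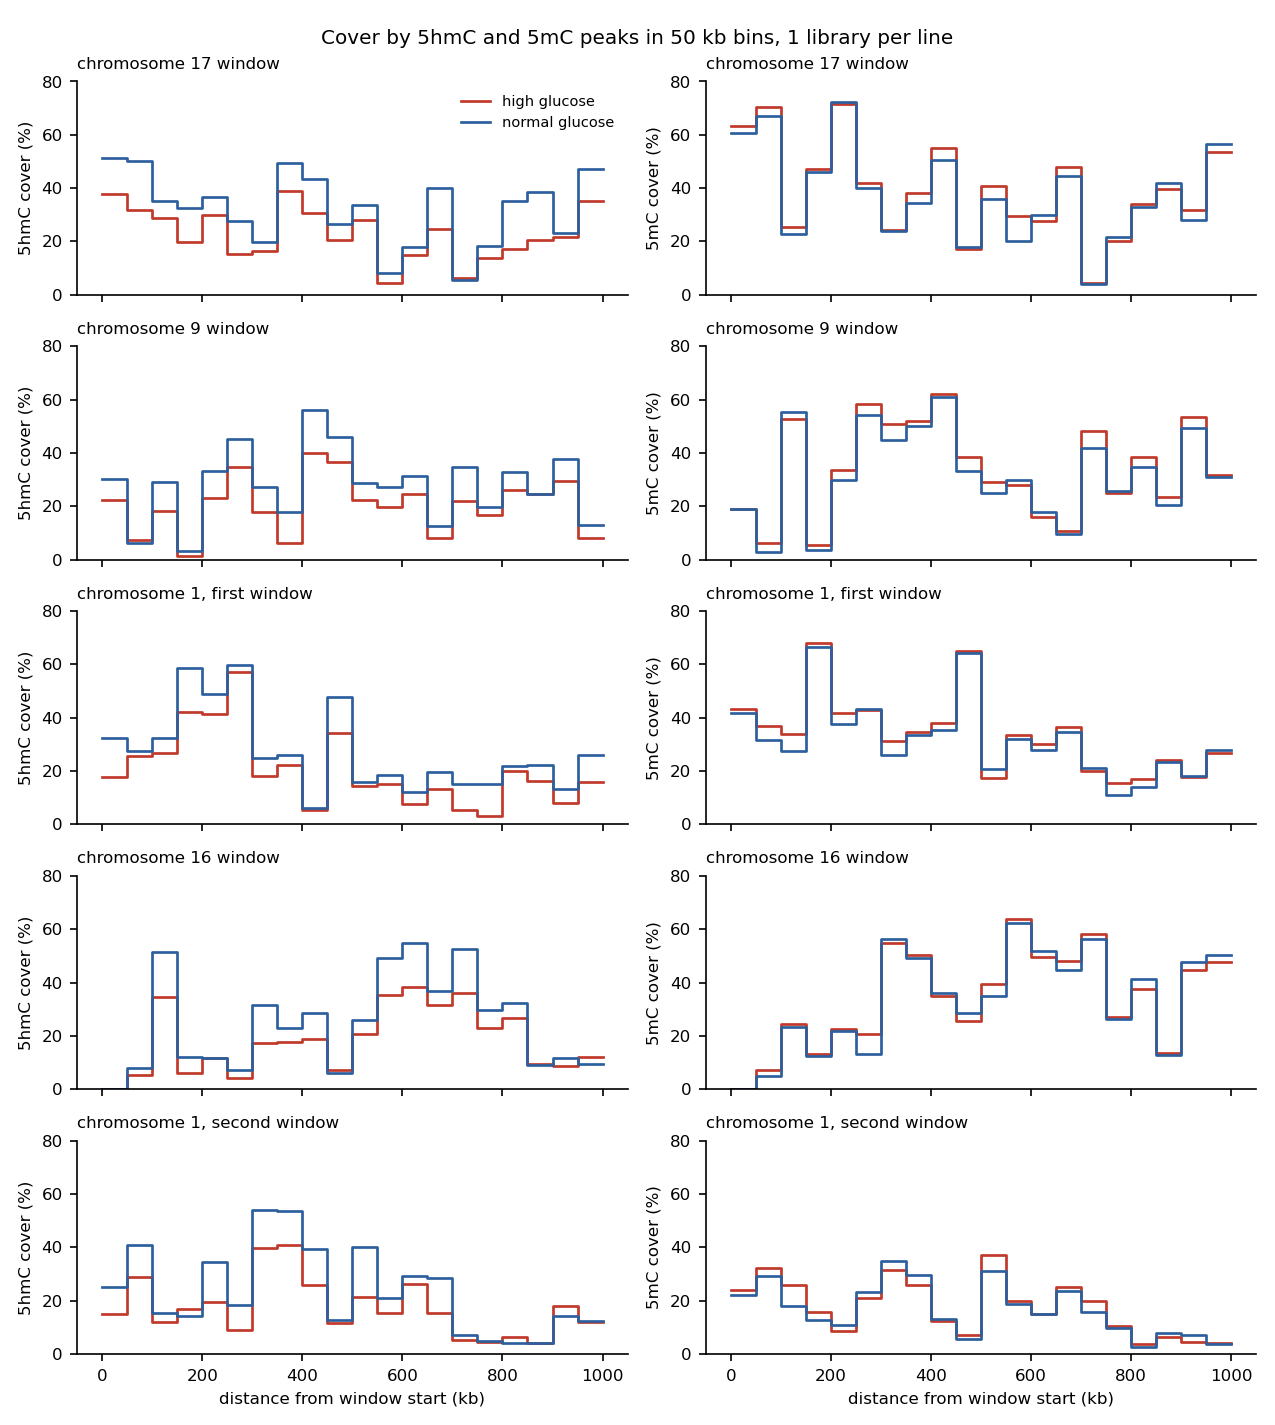
Percent of each 50 kb bin covered by 5hmC peaks (left) and 5mC peaks (right) against the distance from the start of each window in kb, with high glucose in red, normal glucose in blue and 1 library per line. In 5hmC the red line lies below the blue line in 89 of 99 bins with cover. High glucose was lower in 49.6% of all bins of the genome and in 765 of 993 bins of the 50 windows next in 5hmC cover. The 5mC lines differ by at most 9.29 percentage points.

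At 50 kb scale most bins of each window had less 5hmC cover in high glucose, but by unequal amounts. The differences ran from -18.8 to 3.79 percentage points. Of the 99 bins with any 5hmC peak, 66 were lower in high glucose, with at most 0.8 times the cover of normal glucose, where 30.7% of all such bins of the genome were. Only 3 were higher by the same factor, so that normal glucose had at most 0.8 times the cover of high glucose, where 30.2% of all bins were. The bins of the genome had a median 5hmC cover of 2.89% in high and 2.8% in normal glucose, where a small difference passes that factor. In the 50 windows next in 5hmC cover, 411 of 993 bins were lower and 72 higher. In the flanking windows 66 of 167 were lower and 16 higher. Within the 5 windows the lower bins numbered 13 on chromosome 17, 17 on chromosome 9, 11 in the first chromosome 1 window, 13 on chromosome 16 and 12 in the second chromosome 1 window. The first bin of chromosome 16 held no peak of either mark.

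The bin with the largest deficit, chr1:6500001-6550000, had 21.4% 5hmC cover in high glucose and 40.2% in normal glucose, and 37.1% 5mC cover in high glucose and 31.2% in normal glucose. Of its 18 normal-glucose 5hmC peaks, 7 had no high-glucose peak, 1 was split and 5 were narrower. The widest of the 7 was a 1480 bp peak at chr1:6534747-6536226 with a fold enrichment of 5.76 in the authors' list, and the split peak of 2057 bp left pieces of 426 and 383 bp. The 3 rightmost normal-glucose peaks of the bin, 1480, 1931 and 1358 bp wide, faced high-glucose peaks of 531, 834 and 1014 bp. By contrast the peak at chr1:6519609-6522028 was 2420 bp wide in high glucose with a fold of 8.43, and its normal-glucose partner was 2457 bp wide with a fold of 7.14. Both 5mC lists held a peak over that position, with a fold of 60.1 in high glucose and 44.9 in normal glucose.

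**Figure D2:**
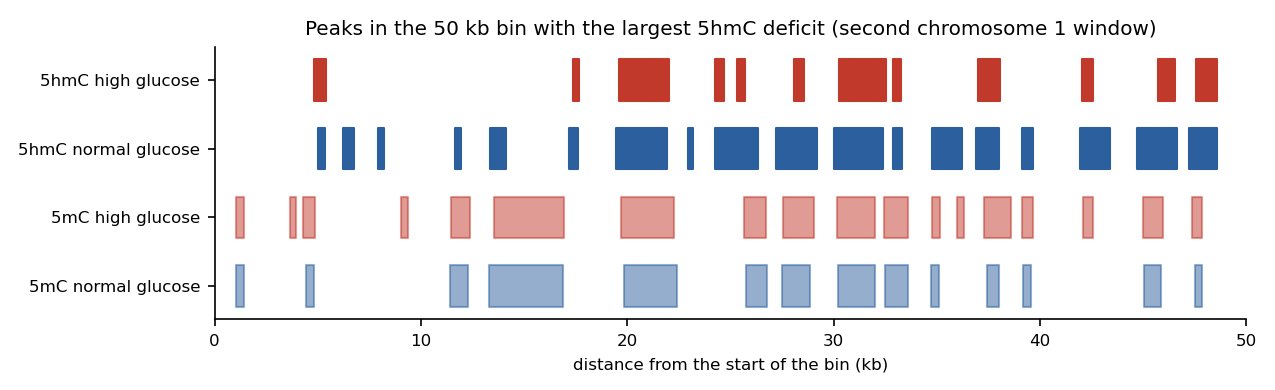
Peaks of the 4 lists in the bin chr1:6500001-6550000, drawn to scale against the distance from the start of the bin in kb, with high glucose in red and normal glucose in blue. The 5hmC row of high glucose holds 12 peaks and that of normal glucose 18, while the 5mC rows hold 18 in high glucose and 14 in normal glucose.

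On chromosome 17 the largest deficits were in 79050001-79100000, with 31.8% 5hmC cover in high and 50.2% in normal glucose, and in 79800001-79850000, with 17.0% in high and 35.0% in normal glucose. Each had 8 absent normal-glucose peaks, of 19 and of 16. Their 5mC covers were 70.5% in high and 67.2% in normal glucose, and 34.2% in high and 32.8% in normal glucose. A large deficit thus stood both in a bin that was mostly inside 5mC peaks and in one that was mostly outside them.

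On chromosome 9, bin 139400001-139450000 had 39.8% 5hmC cover in high and 56.2% in normal glucose, and bin 139700001-139750000 had 22.1% in high and 34.9% in normal glucose. The 5mC cover was 62.1% in high and 60.9% in normal glucose in the first of these, and 48.2% in high and 41.7% in normal glucose in the other. In the first chromosome 1 window, bin 1150001-1200000 had 42.0% 5hmC cover in high and 58.7% in normal glucose, and bin 1000001-1050000 had 17.9% in high and 32.5% in normal glucose. Both bins had slightly more 5mC in high glucose, 68.0% against 66.7% in normal glucose, and 43.4% against 41.7% in normal glucose.

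On chromosome 16, bin 100001-150000 had 34.6% 5hmC cover in high and 51.3% in normal glucose with a low 5mC cover of 24.4% in high and 23.4% in normal glucose. Bin 700001-750000 of the same window had 36.0% 5hmC cover in high and 52.6% in normal glucose, with 58.4% 5mC cover in high and 56.2% in normal glucose. In the second chromosome 1 window, bin 6200001-6250000 had 19.5% in high and 34.7% in normal glucose with only 8.83% 5mC cover in high and 10.8% in normal glucose. The 2 bins of largest deficit in each window thus had between 8.83% and 70.5% 5mC cover in high glucose.

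The 3 bins called higher in high glucose were chr1:6900001-6950000, with 18.1% in high and 14.3% in normal glucose, chr16:950001-1000000, with 11.9% in high and 9.45% in normal glucose, and chr1:6800001-6850000, with 6.42% in high and 3.99% in normal glucose. The chromosome 16 bin had 47.8% 5mC cover in high and 50.4% in normal glucose. From position 6750001 to the end of the second chromosome 1 window, 5hmC cover was at most 18.1% in high and 14.3% in normal glucose, and this stretch held no bin that was lower by the limit. On chromosomes 17 and 9 the bins with most excess differed by less than the limit, and in the first chromosome 1 window every bin was lower in high glucose, the least at 1400001-1450000, with 5.41% in high and 6.20% in normal glucose.

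Absent peaks were the largest term in the deficit, followed by narrower and split ones. The order was the same in the 50 windows next in 5hmC cover and over the genome. A normal-glucose 5hmC peak was called absent in high glucose when no high-glucose peak overlapped it by at least 1 bp, split when at least 2 high-glucose peaks overlapped it, and narrower when its only partner had at most 0.8 of its width. Absent here means not listed among peaks that reach up to a q-value of 0.0498, and not that the mark was gone. Of the 1374 normal-glucose peaks, 440 were absent, 32.0% with a Wilson 95% interval of 29.6 to 34.5, where the share over the genome was 31.2%. Split peaks numbered 106, 7.71% (6.42 to 9.25), against 1.75% over the genome, and narrower ones 277, 20.2% (18.1 to 22.4), against 12.4%. Another 134 had at most 0.8 times the width of their only partner in high glucose, so were wider there, 9.75% against 15.8% over the genome, 341 were alike in width and 76 were joined with a neighbour under 1 high-glucose peak. In the 50 windows next in 5hmC cover, 26.7% of normal-glucose peaks were absent, 5.58% split, 17.5% narrower and 12.5% wider. In the flanking windows these shares were 29.8%, 4.81%, 15.8% and 12.6%. The 5 windows were chosen on this contrast, so nothing is read from these distances to the genome or to the other windows.

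The converse classes held fewer peaks than the classes above in the 5 windows. Of 1152 high-glucose 5hmC peaks, 134 had no normal-glucose peak, 11.6% (9.91 to 13.6), against 24.1% over the genome. Split in normal glucose were 46, 3.99% against 1.61%. The 50 windows next in 5hmC cover were close to the 5 windows in both shares, with 13.4% absent and 3.77% split. Per window, between 22 and 31 high-glucose peaks had no normal-glucose partner, and between 76 and 111 normal-glucose peaks had no high-glucose partner. Absent peaks were found in 97 of the 99 bins, with a median of 5 and a maximum of 12 per bin, narrower ones in 89 and split ones in 54.

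**Figure D3:**
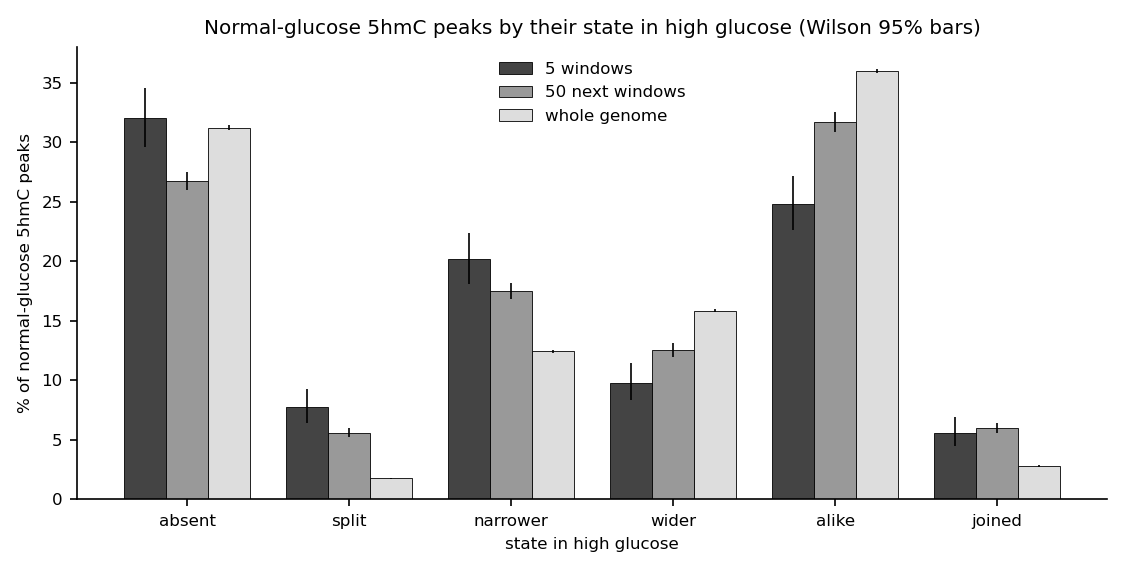
Percent of normal-glucose 5hmC peaks in each state in high glucose, for the 5 windows, the 50 windows next in normal-glucose 5hmC cover and the whole genome, with Wilson 95% bars that cover counting only. Absent peaks make up 32.0% in the 5 windows, 26.7% in the 50 windows and 31.2% in the genome. Split peaks make up 7.71% in the 5 windows, 5.58% in the 50 windows and 1.75% in the genome. Narrower peaks make up 20.2% in the 5 windows, 17.5% in the 50 windows and 12.4% in the genome.

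In covered length, high glucose had 995 kb and normal glucose 1355 kb, a net -359 kb. Absent peaks took -228 kb of this, narrower peaks -153 kb and split peaks -78.5 kb. These terms count connected groups of overlapping peaks of both lists, with all their bases in the windows. The 90 split groups held 1 normal-glucose peak each, and groups with several peaks of both lists stood apart with -5.37 kb. Taken singly, the 106 split peaks lost 101.6 kb of their own bases. Peaks listed only in high glucose gave back 60.5 kb and wider ones 46.4 kb. Over the genome the same terms were nearer to balance, with -27071 kb from absent peaks and 18621 kb from peaks listed only in high glucose, and with -9423 kb from narrower and 8623 kb from wider peaks. In the 50 windows next in 5hmC cover, absent peaks took -1631 kb, narrower peaks -1017 kb and split peaks -425 kb of a net -1889 kb. There, peaks listed only in high glucose gave back 646 kb and wider ones 503 kb. Absent peaks came to 86.4% of the net there and to 63.5% in the 5 windows.

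The 5 windows shared this order of classes only in part. Absent peaks were the largest term in each window, from -56.7 kb on chromosome 17 to -40.1 kb in the second chromosome 1 window. Splitting was greatest on chromosome 17, with 33 split peaks, and with -31.5 kb in 31 split groups. This slightly exceeded the -30.7 kb of narrower peaks there. Splitting was least in the second chromosome 1 window, with 6 split peaks and -8.53 kb, where narrower peaks took -34.7 kb. In the other 3 windows split peaks numbered between 21 and 23.

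**Figure D4:**
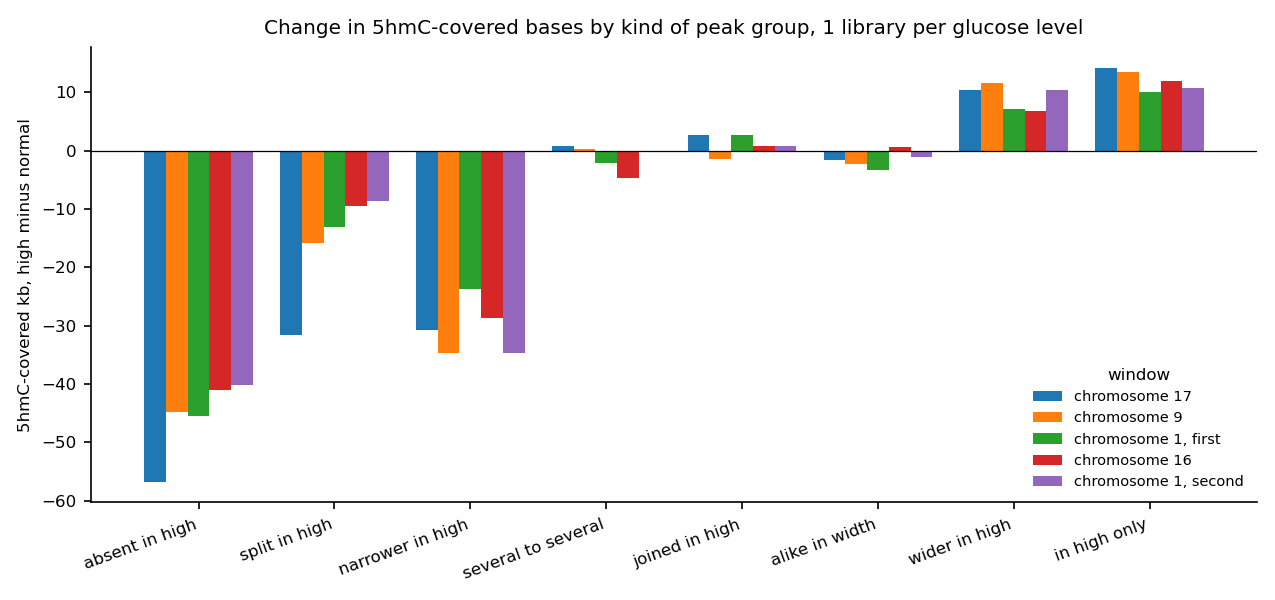
Difference in 5hmC-covered kb, high minus normal glucose, for each kind of overlapping peak group in each of the 5 windows, with 1 library per glucose level. Absent groups lie between -40.1 and -56.7 kb in each window, and gains from wider groups and groups listed in high glucose only are at most 14.25 kb.

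Absent peaks were mostly short and weak, and split peaks long and strong. The median width in normal glucose was 423 bp for absent, 1055 bp for narrower, 856 bp for alike and 2283 bp for split peaks. The median -log10 p, as the authors' lists give it, was 6.25 for absent, 10.2 for narrower, 12.6 for alike and 17.2 for split peaks. Absent and split peaks stood apart in the same way elsewhere. Over the genome absent peaks had medians of 344 bp and 6.31, and split peaks of 1866.5 bp and 15.1. In the 50 windows next in 5hmC cover these were 405 bp and 6.11, and 2373 bp and 17.7. Among normal-glucose peaks with a -log10 p of at least 10, 51 of 577 were absent in high glucose, 8.84% against 8.90% over the genome. Among high-glucose peaks of that strength, 17 of 490 were absent in normal glucose, 3.47% against 9.88% over the genome.

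The widest absent peak of each window was 2115 bp on chromosome 17 (chr17:79982138-79984252), 1779 bp on chromosome 9 (chr9:139392925-139394703), 2204 bp in the first chromosome 1 window (chr1:1710699-1712902), 2593 bp on chromosome 16 (chr16:339701-342293) and 2729 bp in the second chromosome 1 window (chr1:6062144-6064872). The chromosome 16 peak lay 4377 bp from the nearest high-glucose 5hmC peak, and that of the second chromosome 1 window 472 bp. Their surroundings in 5mC differed. The chromosome 16 and 17 peaks lay wholly inside 5mC peaks of both glucose levels, the chromosome 9 peak had 70.8% of its length in 5mC peaks of high glucose and 100% in those of normal glucose, and the peak at chr1:1710699-1712902 overlapped no 5mC peak in either list.

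The absent peaks of highest -log10 p were between 457 and 1342 bp wide. They were chr1:6318665-6319140, 476 bp with a -log10 p of 21.8, chr1:1214287-1214743, 457 bp with 21.2, chr1:6558585-6559476, 892 bp with 17.1, chr17:79296072-79296788, 717 bp with 16.6, and chr17:79283700-79285041, 1342 bp with 16.2. The strongest peaks listed in high glucose only were alike in strength. They were chr9:139078126-139078592, 467 bp with a -log10 p of 21.8, chr17:79152292-79152757, 466 bp with 17.9, chr1:1105252-1106149, 898 bp with 17.3, chr1:6850191-6850594, 404 bp with 16.2, and chr1:1851869-1852327, 459 bp with 14.8. Of these, 3 of the 5 absent in high glucose and 1 of the 5 listed only in high glucose overlapped 5mC peaks.

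Narrower peaks drew in from their ends around a summit that mostly stayed covered, as they also did over the genome. Over the 277 pairs the median width was 522 bp in high glucose and 1055 bp in normal glucose. The high-glucose peak ended inside the normal-glucose peak at both ends in 178 pairs, at the left end only in 51 and at the right end only in 48, with median distances of 171 bp on the left and 176 bp on the right. The normal-glucose summit lay inside the high-glucose peak in 224 of the 277, and the summits were a median of 97 bp apart. Over the genome both ends lay inside in 14254 of 26071 pairs, and the summit stayed covered in 22639. In the 50 windows next in 5hmC cover these were 1309 and 1858 of 2214. By definition a narrower partner ends inside its peak at the left or the right end. The pair that differed most in each window was 765 bp in high and 2196 bp in normal glucose at chr17:79116648-79118843, 2763 bp in high and 4475 bp in normal glucose at chr9:139750689-139755163, 1009 bp in high and 3458 bp in normal glucose at chr1:1480030-1483487, 1316 bp in high and 2987 bp in normal glucose at chr16:707549-710535, and 471 bp in high and 2194 bp in normal glucose at chr1:6214811-6217004.

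A narrower peak was not always a weaker one. At chr16:707549-710535 the fold was 5.42 in high and 2.64 in normal glucose, and at chr17:79116648-79118843 it was 3.97 in high and 2.81 in normal glucose. At chr1:1480030-1483487 it was 2.48 in high and 4.91 in normal glucose, and at chr1:6214811-6217004 it was 2.64 in high and 4.89 in normal glucose.

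Split peaks mostly fell into 2 pieces, in 85 of 106, with at most 4, and the 132 gaps between pieces had a median length of 459 bp. The normal-glucose summit lay inside a piece in 99 of the 106. Over the genome 3368 of 3668 split peaks fell into 2 pieces, and the summit lay inside a piece in 3471. In the 50 windows next in 5hmC cover these were 609 and 672 of 705. The split peak of chromosome 17 that lost most bases was 5737 bp wide at chr17:79660015-79665751 and faced high-glucose pieces of 631, 710 and 803 bp. On chromosome 9 a peak of 3475 bp at chr9:139443583-139447057 faced pieces of 355 and 855 bp, and in the first chromosome 1 window one of 2437 bp at chr1:1020788-1023224 faced pieces of 507 and 292 bp. On chromosome 16 a peak of 3302 bp at chr16:568790-572091 faced pieces of 583 and 2532 bp, of which the wider ran past its end, so that 1584 bp of the peak were covered in high glucose and 1718 bp were not, and in the second chromosome 1 window one of 4221 bp at chr1:6321868-6326088 faced pieces of 1012 and 1413 bp. Over the 5 windows together, 55.4% of the gap length was in 5mC peaks of both lists, 4.54% in those of high glucose only and 5.83% in those of normal glucose only. In the second chromosome 1 window, with 8 gaps, 35.0% was in 5mC peaks of both lists. In the 50 windows next in 5hmC cover 42.0% of the gap length was in 5mC peaks of both lists, and over the genome 26.4%. Of all bases of the split peaks in the 5 windows, 69.5% lay in 5mC peaks of high glucose and 68.2% in those of normal glucose. These shares were 54.9% and 54.5% in the 50 windows next in 5hmC cover, and 38.1% and 37.6% over the genome.

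At the bases that were 5hmC-covered in normal glucose only, 5mC peaks were no more frequent in high glucose. These bases came to 545 kb, of which 43.5% lay in 5mC peaks of both lists, 5.64% in those of high glucose only and 6.31% in those of normal glucose only. The 185 kb that were 5hmC-covered in high glucose only had 39.0% in 5mC peaks of both lists, 7.18% in those of high glucose only and 4.40% in those of normal glucose only. The 810 kb covered by 5hmC at both glucose levels had 55.2% in 5mC peaks of both lists, and bases with no 5hmC peak had 16.3%. Bases with 5hmC in 1 list were thus less often in 5mC peaks than those with 5hmC in both, and more often than those with none. This order was not particular to the 5 windows. In the 50 windows next in 5hmC cover, 5mC peaks of both lists held 34.1% of the normal-only and 26.4% of the high-only 5hmC bases. They held 41.0% of those with 5hmC in both and 9.98% of those with none. Over the genome the first 3 of these shares were 12.3%, 6.89% and 15.2%.

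By class, 251 of the 440 absent peaks overlapped a 5mC peak of high glucose (57.0%) and 248 one of normal glucose (56.4%). The shares were 93.4% with 5mC of high glucose and 92.5% with 5mC of normal glucose for split peaks, and 73.6% with 5mC of high glucose and 72.2% with 5mC of normal glucose for narrower peaks. Among the 134 peaks listed only in high glucose, 53.0% overlapped 5mC of high glucose and 49.3% 5mC of normal glucose. Peaks alike in width overlapped 5mC of high glucose in 68.9%, and all 1374 normal-glucose 5hmC peaks of the windows in 67.5%. Over the genome 14.8% of absent, 61.5% of split, 29.3% of narrower and 17.0% of alike peaks overlapped 5mC of high glucose, as did 18.5% of all normal-glucose 5hmC peaks and 9.16% of those listed only in high glucose. In the 50 windows next in 5hmC cover these shares were 43.1% of absent, 84.1% of split, 63.0% of narrower and 48.0% of alike peaks. There they were 51.4% of all normal-glucose 5hmC peaks and 33.8% of those listed only in high glucose. Split peaks were also the widest class, and a wider peak has more room to overlap; the part of width in these shares was not tested.

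Seen from the 5mC peaks, 683 of 1270 in high glucose overlapped a 5hmC peak of high glucose, 53.8% (51.0 to 56.5), and 811 of 1227 in normal glucose overlapped one of normal glucose, 66.1% (63.4 to 68.7). Over the genome 32.2% did in high and 39.7% in normal glucose, and in the 50 windows next in 5hmC cover 54.3% in high and 64.1% in normal glucose. These shares were thus close to those of other windows rich in 5hmC. The widest 5mC peak of each window was listed at both glucose levels, and each held less 5hmC in high glucose. On chromosome 16 it was 16640 bp wide in high and 16872 bp in normal glucose (chr16:586114-602985), with 10124 bp of 5hmC peaks in high and 12905 bp in normal glucose inside it. In the first chromosome 1 window it was 11448 bp in high and 10472 bp in normal glucose (chr1:1016630-1027101), with 2542 bp of 5hmC in high and 7023 bp in normal glucose. The other 3 were 11311 bp in high and 10169 bp in normal glucose on chromosome 17, 12477 bp in high and 10848 bp in normal glucose on chromosome 9, and 6130 bp in high and 5286 bp in normal glucose in the second chromosome 1 window. On chromosome 17 (chr17:79228532-79238700) the 5hmC inside came to 2350 bp in high and 4346 bp in normal glucose, on chromosome 9 (chr9:139905377-139916224) to 2733 bp in high and 4989 bp in normal glucose, and in the second chromosome 1 window (chr1:6336317-6341602) to 4590 bp in high and 5286 bp in normal glucose.

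By bin, 5mC cover in high glucose differed from that in normal glucose by between -3.94 and 9.29 percentage points. Of 99 bins, 10 were higher and 1 was lower in 5mC cover in high glucose by the same factor as above, where 36.6% of the bins of the genome were higher and 21.5% lower. The bins of the genome had a median 5mC cover of 2.05% in high and 1.83% in normal glucose, where a small difference passes that factor, against 31.2% in high and 29.4% in normal glucose in the 5 windows. In the 50 windows next in 5hmC cover, 151 of 955 bins were higher and 62 lower. By any amount, 68 of the 99 bins of the 5 windows were higher and 31 lower in high glucose, against 59.4% and 40.5% over the genome. Of the 66 bins with lower 5hmC, 46 had more and 20 less 5mC in high glucose, and of the other 34 bins, 22 had more and 11 less. Of 1227 normal-glucose 5mC peaks 119 were absent in high glucose, 9.70% against 21.5% over the genome, and of 1270 high-glucose 5mC peaks 185 were absent in normal glucose, 14.6% against 28.3%. Split in the other list were 62 normal-glucose 5mC peaks, 5.05% against 1.77% over the genome and 4.69% in the 50 next windows. So were 85 high-glucose 5mC peaks, 6.69% against 1.79% over the genome and 4.51% in the 50 next windows.

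Bins with more 5mC had larger 5hmC deficits in percentage points, but the difference in 5mC did not go with the deficit. With the 100 bins in 4 equal groups of rising normal-glucose 5mC cover, the 5hmC difference was -2.88, -5.91, -8.70 and -11.3 percentage points, and the ratio of high to normal glucose 0.788, 0.743, 0.730 and 0.715. Spearman's rho between the 5hmC difference and normal-glucose 5mC cover was -0.587 and Pearson's r -0.586. Within windows rho was between -0.839 on chromosome 9 and -0.224 in the first chromosome 1 window. Against the difference in 5mC, rho was -0.047, and against normal-glucose 5hmC cover it was -0.791. The covers by 5hmC and 5mC in normal glucose themselves had a rho of 0.671. In the 1000 bins of the 50 next windows, rho between the 5hmC difference and normal-glucose 5mC cover was -0.576. These values describe bins of the same libraries, the deficit contains the normal-glucose 5hmC cover by construction, and neighbouring bins are not independent.

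**Figure D5:**
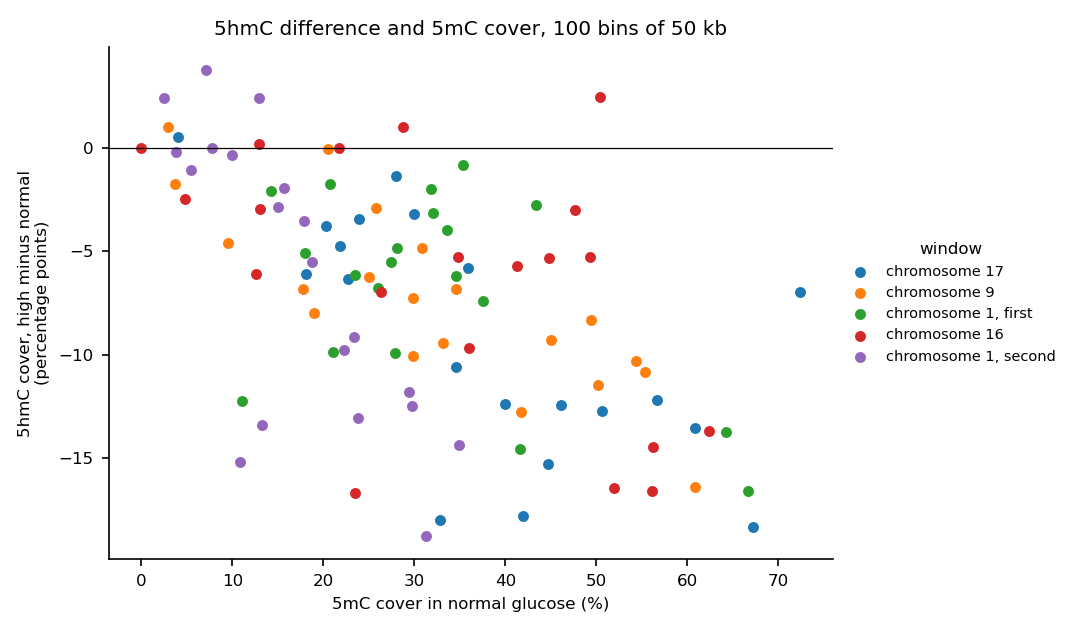
Difference in 5hmC cover, high minus normal glucose in percentage points, against 5mC cover in normal glucose in percent, for the 100 bins of 50 kb coloured by window. Points lie lower towards the right, with a Spearman's rho of -0.587 over all bins.

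The fold and p columns of the lists gave the fragments behind each summit and the number expected from background. In the 5 windows a 5hmC peak had a median of 21 fragments against 4.16 expected in high glucose and of 19 against 3.41 in normal glucose, and the lowest expected number was 3.03 in high and 2.64 in normal glucose. A 5mC peak had a median of 17 fragments in high and 16 in normal glucose, with a lowest expected number of 0.737 in high and 0.615 in normal glucose. The lowest expected 5hmC numbers were the same over the genome. The median expected 5hmC numbers there were 4.16 in high and 3.75 in normal glucose. A higher expected number asks for more fragments before a peak is listed, and its part in the deficit was not tested.

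In the 752 pairs of peaks with 1 partner each, the summit had a median of 22 fragments in both groups. The median ratio of fragments, high over normal glucose, was 1.06, and that of the expected number 1.17. Over the genome these were 1.14 and 1.15. Among narrower pairs the high-glucose summit had fewer fragments in 134 of 277 and more in 127. Among pairs alike in width the high-glucose summit had fewer in 121 of 341 and more in 202. Of all 752 pairs, 55.7% had more fragments in high glucose and 39.2% fewer. These shares were 62.9% and 30.9% in the 50 windows next in 5hmC cover, and 67.7% and 26.3% over the genome. The counts by class are for the 5 windows only.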

How the data were processed

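The authors deposited 1 narrow-peak list per immunoprecipitated library, with no pooled list, per the labels. Per the submitters' processing notes, Bowtie 1.0.0, CASAVA 1.8.2, bedtools 2.17.0, SAMtools 0.1.18 and hg19 were used, without their roles; the peak caller is not given in the sources used here. Each deposited row holds a display score, the −log10 q-value, the −log10 p-value, the fold enrichment over background (a ratio) and the summit, all the authors' own values, used only to describe peaks. The deposited lists reach a q-value of 0.0498. Groups follow the titles, although the peaks in the high-glucose lists are named Ctrl and those in the normal-glucose lists Low.

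Peaks, their overlaps (at least 1 bp) and cover in bins of 50 kb were computed with Python 3.11.15, NumPy 2.4.6, pandas 2.3.3 and SciPy 1.17.1, and checked on simulated peaks. Peaks outside chromosomes 1 to 22 and X were left out of genome values. Bases were clipped at window edges. Fragments were solved from fold = (t + 1)/(L + 1), with p the Poisson chance of more than t fragments when L are expected, and a whole t was found for every 5hmC and 5mC peak in the windows. Wilson 95% intervals reflect counting error alone: duplicate reads cannot be told from separate molecules here, and peaks are not replicates. Regions named in the text follow a rule: per window, the 2 bins with the largest 5hmC deficit and the 1 with the largest excess, the widest absent peak, the split peak and the narrower pair that lost most bases, and the widest normal-glucose 5mC peak; over all windows, the 5 strongest absent peaks in either direction. The remaining bins named, the peaks described inside the bin of largest deficit and the third bin with more 5hmC were chosen after their values were seen. The windows, measures and rule were chosen with earlier results of these data known. No genes are named and no sequences shown, because the references used here are on another build.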

Additional observations from a re-analysis of the deposited data

How the results depend on the processing

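No paired analysis was possible because each group had 1 library. Under 5 other ways of cutting or merging the lists, the 5hmC difference kept its sign in 25 of 25 window values, but not its size or order. At a -log10 p of 10 or more it was -6.92 on chromosome 9, -6.40 on chromosome 17, -5.01 and -4.50 in the second and first chromosome 1 windows and -2.74 on chromosome 16, where it was -6.35 as reported. Over the 5 windows it was -6.95 percentage points at a -log10 p of 5 or more, -5.11 at 10 or more, -7.02 with a -log10 q of at least 2, -5.74 with equal numbers of top peaks and -7.86 with peaks within 500 bp merged. Bins with lower 5hmC numbered 123 of 194 at 25 kb, 36 of 50 at 100 kb, and 30 of 99 at a 1.5-fold limit. Bins with higher 5mC numbered 28 at 25 kb, 3 at 100 kb, 3 at 1.5-fold and 68 at any difference. Absent peaks made up 38.5% at a -log10 p of 10 or more in both lists, 28.8% with equal numbers, 29.0% with merging and 43.7% when 50% of a peak had to be covered. Split peaks made up 4.51% at 10 or more. Narrower peaks made up 16.1% at a -log10 p of 10 or more, 23.0% with merging, 33.1% at any difference in width and 13.2% at 1.5-fold. Absent peaks overlapped 5mC of high glucose in 63.5% at 10 or more and in 46.8% when 50% of the 5hmC peak had to be covered. Absent peaks alone, before gains elsewhere are counted, came to 63.5% of the net deficit in covered bases. This was 70.7% at a -log10 p of 5 or more, 95.9% at 10 or more, 64.2% with a -log10 q of at least 2, 65.8% with equal numbers and 45.7% with merging. The cause of these shifts was not tested. A threshold on both lists turns a partner that falls below it into an absent peak. The correlation of the 5hmC difference with normal-glucose 5mC cover stayed between -0.441 and -0.598.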
